A study of Drosophila melanogaster with 36 samples.

Results

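Contacts between the centromere ends of different chromosomes were measured by Hi-C, which counts how often pairs of genomic segments are ligated together in fixed nuclei, in ovarian somatic cells (OSCs), a Drosophila melanogaster line cultured from the somatic part of the ovary. The pairs were chosen by position in the dm3 genome and not by any measured value. A pair of 40-kb bins was a member when its bins lay on different chromosomes among X, 2 and 3 and each lay in the 1 Mb of its arm nearest the centromere. These windows were X 21440001 to 22422827, 2L 22000001 to 23000000, 2R 1 to 1000000, 3L 23560001 to 24543557 and 3R 1 to 1000000. They held 25 bins in each of 5 arms, which formed 5000 possible pairs in 8 arm pairs, 0.178% of the 2803824 pairs between chromosomes. The authors removed bins of low or high coverage, and 116 to 121 member bins were kept in each matrix, which left 4223 pairs in H1-KD, 4430 in the Piwi-series Control-KD, 4529 in Piwi-KD and 4600 in the other 6 matrices. The OSCs had been transfected with siRNA against Piwi (Piwi-KD, 4 days), Nxf2 (Nxf2-KD), the linker histone H1 (H1-KD), Eggless (Egg-KD) or HP1a (HP1a-KD, labelled HP1-KD-2days). Every Control-KD received siRNA against EGFP, including a 2-day one for the HP1a series, and H1-KD and Egg-KD shared a Control-KD. Knockdown times of the Nxf2, H1 and Egg series were not given in the sources used here. Each condition was 1 matrix that the authors summed from 2 replicates, so no knockdown difference below carries a test between replicates.

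In interphase nuclei of flies, centromeres tend to gather at one side of the nucleus and telomeres at the other, an arrangement called Rabl, and the repeat-rich heterochromatin around the centromeres of all chromosomes tends to coalesce into chromocenters. HP1a is the protein that binds histone H3 methylated at lysine 9 and coats this heterochromatin, and Eggless, the fly SETDB1, is a methyltransferase that deposits that mark. H1 binds the linker DNA between nucleosomes and compacts chromatin. Piwi is the nuclear protein that piRNAs guide to nascent transposon transcripts, and Nxf2 is a partner needed for the silencing that follows. The mapped ends of the dm3 arms reach only the outer part of the pericentric heterochromatin, because the satellite repeats nearer the centromere are not assembled.

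The siRNA that defines a knockdown can be read from its antisense strand, the one that pairs with the target RNA. The strands below, from the study's list of oligonucleotides, are shown because they are what separates these matrices from their controls. No strand is shown for Egg-KD. Capitals mark the seed (bases 2 to 8). The 4 seeds differ from each other, though those of Nxf2-KD and H1-KD share most of their bases in a shifted position.
Piwi-KD siRNA, antisense strand: cACCUUCAcgccugggagctt
Nxf2-KD siRNA, antisense strand: aUGGUGCAcugugauuucgtt
H1-KD siRNA, antisense strand: gGGUGCAUcuggaucuuuctt
HP1a-KD siRNA, antisense strand: gUCGGAGGcacccaagauctt

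The deposited values were contact signals corrected so that each kept bin had the same total within a matrix, and the whole contacts behind them could be recovered. A matrix held 25463370 contacts (H1-KD) to 73205693 contacts (Piwi-KD). The matrices of the Piwi and Nxf2 series held at least 63488562 and the others at most 31691817, and between-chromosome contacts made up 8.31% to 12.5%. Member pairs held 8849 to 27442 contacts per matrix, and 9.19% to 36.7% of the kept member pairs had none and were counted as 0. In what follows, enrichment is the mean signal of member pairs over the mean of all other bin pairs of the same arms, so that 1 means no excess. The overall value sums the 8 arm pairs, each against its own mean. Intervals are 95% and cover counting error only, since the replicates were merged. No molecular identifiers were described for the reads. A change is log2 of the enrichment in a knockdown over that in its own Control-KD. It was called larger than the control differences when its size was above the largest of the 6 differences between pairs of the 4 Control-KD matrices.

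Centromere ends of different chromosomes were in contact more often than other loci of the same arms in every matrix. Enrichment over all 8 arm pairs was 3.71, 3.25, 3.64 and 3.76 in the Control-KD matrices of the Piwi, Nxf2, H1/Egg and HP1a series, with a geometric mean of 3.58. It was 3.66 in H1-KD, 3.54 in Piwi-KD, 3.45 in HP1a-KD, 3.43 in Egg-KD and 3.30 in Nxf2-KD. The 5 knockdowns thus lay within the range of the 4 controls, whose lowest value came from the Nxf2 series. The 95% counting interval was 3.19 to 3.30 in that control and 3.66 to 3.87 in the HP1a-series control, so the controls differed by more than their counting error. On the contacts before correction the enrichment of the controls was lower, with a geometric mean of 1.93.

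The level depended strongly on which arms met. The end of 3L with the ends of chromosome 2 was highest. For 2R with 3L, enrichment in the 4 controls was 7.61, 6.18, 7.73 and 7.91, in the same order of series. For 2L with 3L it was 6.09, 5.08, 6.18 and 6.23. These were the first and second of the 8 arm pairs in all 9 matrices. At the other end of the order, X with 3R had a control mean of 2.20 (2.05 to 2.40) and 2L with 3R a mean of 1.85 (1.70 to 1.96). They ranked 7 and 8 in all 9 matrices. Between them were X with 2L at 3.32 (2.83 to 3.56), X with 2R at 3.15 (2.95 to 3.45), X with 3L at 2.95 (2.78 to 3.42) and 2R with 3R at 2.88 (2.62 to 3.16). The order of these 4 changed from matrix to matrix, and their ranges overlapped. The low value of 2L with 3R stood beside a high reference. In the Piwi-series control its other bin pairs had a mean signal of 4.15, against 2.19 to 3.38 for the other arm pairs, and its member pairs a mean signal of 7.96, above the 6.29 of 2R with 3R.

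**Figure D1:**
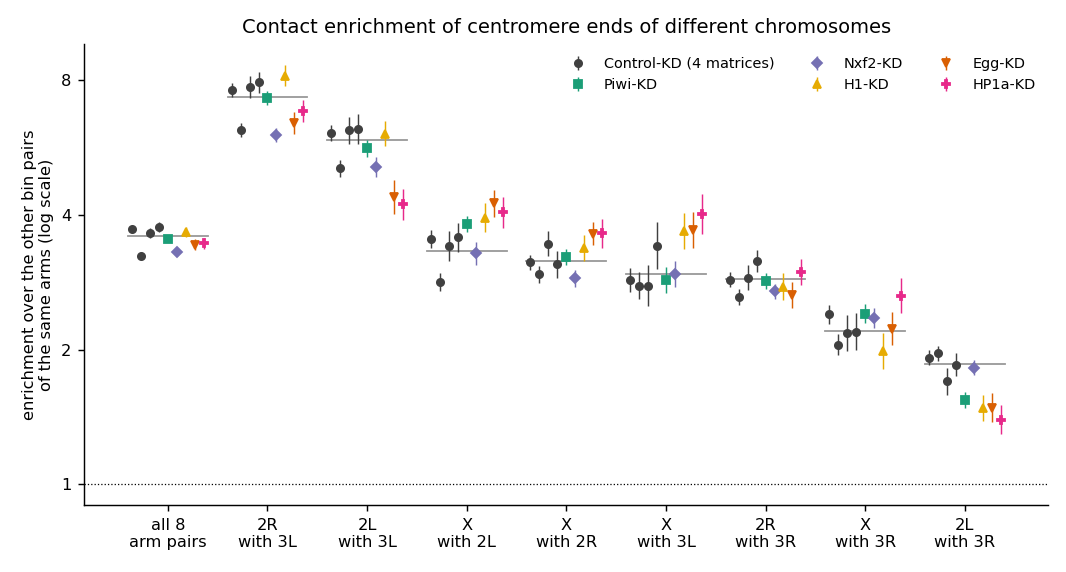
Enrichment (log scale) of centromere-end pairs of different chromosomes, for all 8 arm pairs together and for each. Points are the 9 matrices, bars the 95% counting interval and horizontal lines the geometric mean of the 4 Control-KD matrices. 2R with 3L and 2L with 3L lie highest and 2L with 3R lowest, and for 2L with 3L the Egg-KD and HP1a-KD points lie below all 4 controls.

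Most bins of the windows took part. Each bin was scored by its mean signal with the centromere-end bins of the other chromosomes over its arms' mean. Of the 116 member bins kept in all 9 matrices, every one was above 1 in the control mean, the median was 3.06 (range 1.45 to 12.9), and 81.9% were above 2. Of the 2826 other kept bins, 3.01% were above 2 and the median was 0.56. Bins of the 3L end ran from 3.83 at 24320001 to 9.62 at 24240001 with a median of 5.10. The 3R end had its highest bin at position 1, directly at the mapped end, with 4.88, and its median was 2.09. The X end had a median of 2.12 and its lowest bin, at 22000001, was at 1.70. The lowest bins of the other arms were 2L 22000001 at 1.83, 2R 320001 at 2.50 and 3R 880001 at 1.45.

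A few bins stood far above their neighbours. The highest member bin was 2R 920001 to 960000, with an enrichment of 12.9 (11.3 to 14.5 over the 4 controls). On 2L it was 22520001 to 22560000, at 12.0 (10.9 to 13.4). On X it was 21640001 to 21680000, whose directly adjacent bins were kept in no matrix, at 9.70 (7.84 to 10.6). These bins also had an unusual share of their whole contact total with other chromosomes. That share was 43.2% for 2R 920001, 33.4% for X 21800001, 31.3% for X 21640001 and 17.3% for 2L 22520001, against a median of 8.90% over member bins. For the highest 3L bin, 24240001, it was 9.57%, near the median. Whether repeated sequence or a rearrangement of this cell line plays a part in these bins was not tested, since no dm3 sequence or annotation was used.

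Single pairs carried part of the X signal. The pair of X 21800001 with 2L 22520001 had an enrichment of 321 (277 to 354 over the controls, 188 to 523 contacts), against a median of 1.54 over the 480 pairs of these arms. That 1 pair held 19.4% of the member signal of X with 2L, and the 5 highest pairs held 26.9%. It was present in all 9 matrices, with 462 in HP1a-KD, 336 in Egg-KD, 306 in Nxf2-KD, 292 in Piwi-KD and 280 in H1-KD. The highest pair of 2R with 3L, 200001 with 23840001, was at 134 (92.7 to 194), and that of X with 3L, 21640001 with 24160001, at 89.2 (68.1 to 104). For X with 2R the highest was 21640001 with 880001, at 68.1 (38.0 to 129), where the Piwi-series control and Piwi-KD were at 129 and 133 and the other 7 matrices at or below 54.4. In the remaining arm pairs the highest pair was at 8.27 to 42.8. Contacts of 3L with 2L were the opposite case. The highest 1% of pairs held 4.46% of the signal there, and the median pair was at 5.41. Without the highest 1% of pairs, enrichment of X with 2L was 2.56 and that of 2L with 3L 5.80.

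**Figure D2:**
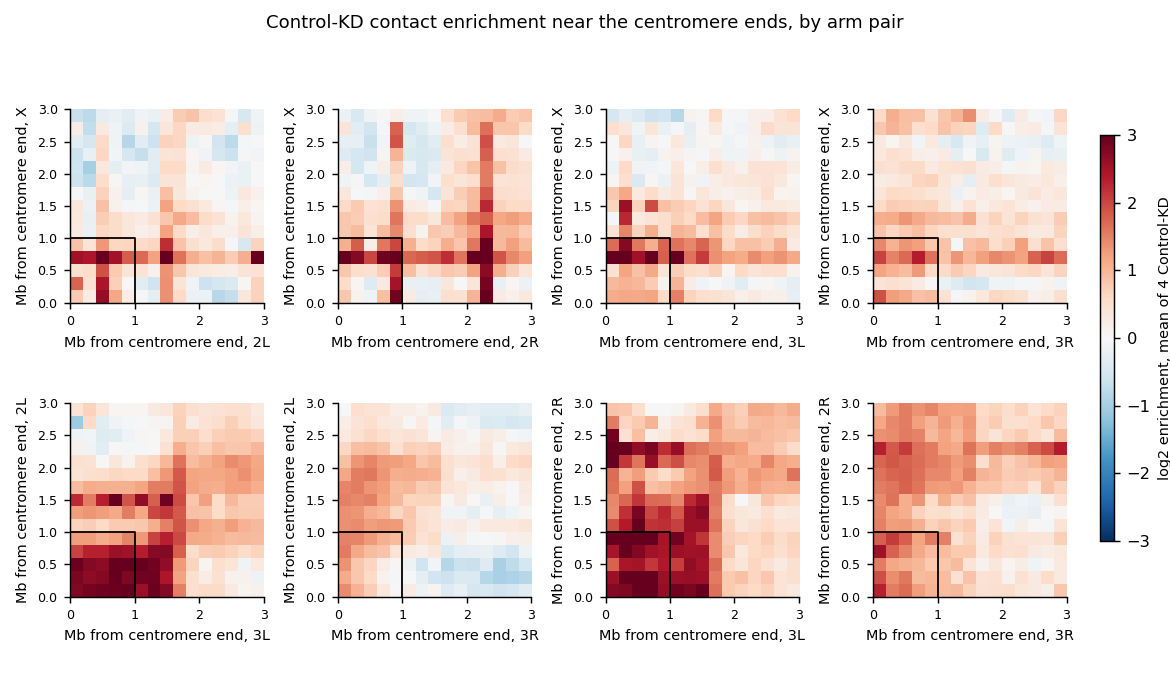
Mean log2 enrichment over the 4 Control-KD matrices in steps of 0.2 Mb, by distance of each bin from the centromere end of its arm (axes in Mb), for the 8 arm pairs. Black outlines mark the 1-Mb member windows. The block of 2L with 3L and of 2R with 3L runs past the outline to about 1.6 Mb on 3L, whereas the X panels hold single stripes.

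Enrichment fell with distance from the mapped end, and its edge differed between arms. Where both bins lay in the same window of distance, the control mean was 3.58 for 0 to 1 Mb, 1.81 for 1 to 2 Mb, 1.40 for 2 to 3 Mb, 1.25 for 3 to 5 Mb and 0.94 for 5 to 10 Mb. With the first Mb of the other chromosomes as partner, bins of 3L stayed at 4.70 to 6.19 in every step of 0.2 Mb up to 1.6 Mb. They then dropped to 2.55 and, past 1.8 Mb, to 1.53. The 3L block was therefore longer than the window of the rule. On 2R a second peak lay outside the window, at 2.2 to 2.4 Mb, where the control mean was 12.9 (10.1 to 16.9), above every step inside it. It came from few bins. 2R 2280001 to 2320000 was at 28.9 (22.7 to 32.2), mostly with X, and 2R 2200001 to 2240000 at 14.3 (9.75 to 26.8), mostly with 3L. Over all 9 matrices the first of these ranged from 22.1 to 33.3, higher than any member bin. One bin far along the X arm, 6040001 to 6080000, was at 6.10 (4.82 to 7.11).

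**Figure D3:**
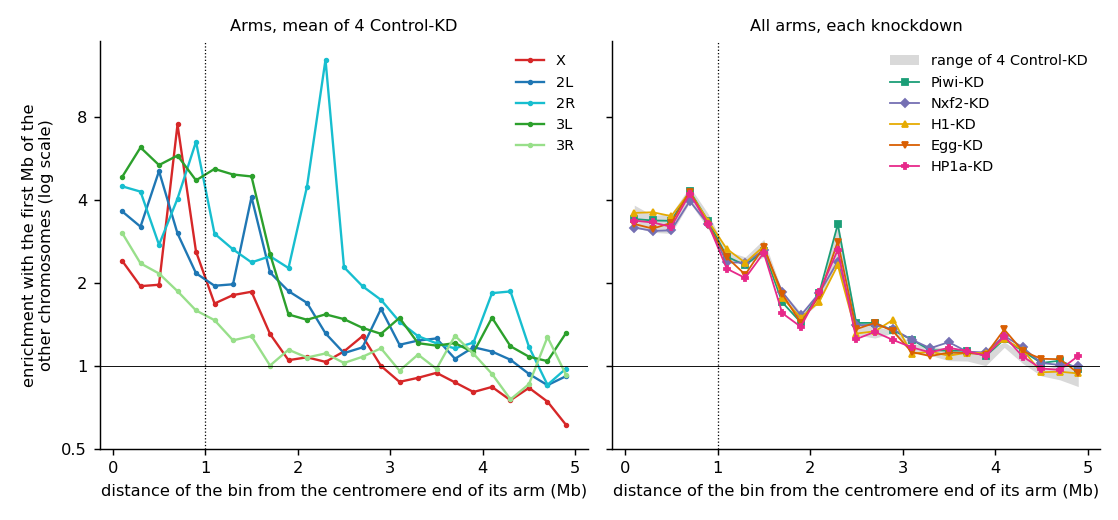
Enrichment (log scale) of 0.2-Mb steps with the first Mb of the other chromosomes, by distance from the centromere end (Mb). The left panel shows the 5 arms as the mean of 4 Control-KD matrices, the right panel all arms for each knockdown with the range of the controls in grey. Bins of 3L stay between 4.70 and 6.19 up to 1.6 Mb, and the peak of 2R at 2.2 to 2.4 Mb reaches 12.9.

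Other chromosome ends were measured in the same way. Telomere ends of different chromosomes had a control mean of 4.87 (4.59 to 5.12), higher than the centromere ends in all 9 matrices. Across the 4 controls the log2 difference of centromere from telomere ends was -0.44 on average (-0.53 to -0.31, SD 0.10), and a two-sided exact sign-flip permutation test gave p = 0.125, the smallest that n = 4 allows. Centromere with telomere ends were depleted, at 0.54 (0.49 to 0.64), and lay below the centromere ends in all 9 matrices. Ends meeting across 1 centromere were higher or close. The 2L and 2R ends had a control mean of 9.63 (8.53 to 10.4), and the 3L and 3R ends 3.47 (3.15 to 3.62), which is within the range seen between chromosomes.

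The question put to the knockdowns was whether loss of Piwi, Nxf2, H1, Egg or HP1a changed how the centromere ends meet. Over all 8 arm pairs, none of the 5 changes was larger than the control differences. The log2 change was -0.12 in HP1a-KD, -0.08 in Egg-KD and -0.07 in Piwi-KD, and 0.02 in Nxf2-KD and 0.01 in H1-KD. The largest control difference was 0.21 and the root mean square of the 6 was 0.14. Counting errors were 0.02 to 0.03, smaller than the spread between controls. The control of the Nxf2 series set its size. Without it the largest difference between the remaining controls was 0.05, and the decreases of Piwi-KD, Egg-KD and HP1a-KD were then above it. A few settings also gave larger values. In HP1a-KD the change was -0.20 with the window widened to 2 Mb and -0.24 with absent pairs left out, above largest control differences of 0.11 and 0.15. In Egg-KD it was -0.23 with only the 10 bins nearest the centromere, above 0.22. The overall value of HP1a-KD also depended on the correction. On contacts before correction it was 0.25, opposite in sign and above the largest control difference of 0.16. With each pair divided by the product of its bins' between-chromosome totals, it was -0.74, with -0.58 in Egg-KD and -0.48 in H1-KD, against a largest control difference of 0.45. At equal bin totals, the log2 change in HP1a-KD was -0.47 for the member signal and -0.35 for the reference. Between-chromosome contacts of the bins moved too. Their median share in member bins was 8.21% in the HP1a-series control and 7.22% in HP1a-KD, against 10.4% and 8.23% in the other bins. In the H1/Egg series it was 7.82% in member bins of the control, 9.55% in H1-KD and 9.23% in Egg-KD, against 9.89%, 10.5% and 9.98% in the other bins.

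By arm pair, 8 of the 40 changes were larger than the control differences, none of them in Nxf2-KD. Of these, 4 were decreases between chromosomes 2 and 3. For 2L with 3L, enrichment was 4.23 in HP1a-KD against 6.23 in its control (log2 -0.56) and 4.39 in Egg-KD against 6.18 (log2 -0.50), with a largest control difference of 0.29. Both knockdowns lay below all 4 controls, whose lowest was 5.08, while Piwi-KD (5.63), Nxf2-KD (5.11) and H1-KD (6.08) lay among them. For 2L with 3R the values were 1.39 in HP1a-KD against 1.85 (log2 -0.41) and 1.54 in Piwi-KD against 1.92 (log2 -0.31), with a largest control difference of 0.21. All 4 controls were at 1.70 or above for this arm pair, and H1-KD and Egg-KD, both at 1.48, were also below them but not by more than that difference from their own control. The other 4 were increases in the enrichment of X pairs. For X with 3L, Egg-KD was at 3.71 and H1-KD at 3.69 against 2.78 in their shared control (log2 0.41 for both), with a largest control difference of 0.30. The HP1a-series control was itself at 3.42 for this arm pair, and against it the increase was 0.11 in H1-KD and 0.12 in Egg-KD. HP1a-KD was at 2.64 against 2.20 for X with 3R (log2 0.27) and at 3.64 against 3.10 for X with 2R (log2 0.23), with largest control differences of 0.22 and 0.23. In both, the mean signal of the member pairs was lower in HP1a-KD, at 1.86 against 2.02 and 3.38 against 3.89. The other bin pairs of these arms fell further, to 0.70 from 0.92 and to 0.93 from 1.25, which made the ratio higher. In the highest arm pair, 2R with 3L, no knockdown passed. Its values were 8.19 in H1-KD, 7.29 in Piwi-KD, 6.83 in HP1a-KD, 6.41 in Egg-KD and 6.03 in Nxf2-KD.

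Settings mattered unequally for these 8. Each kept its direction in 7 of 7 other settings, including the 3 other Control-KD matrices. The increase of X with 2R in HP1a-KD was above the largest control difference in 1 of 4 settings that used its own control, and the others in 3 or 4 of 4. On contacts before correction the decrease of 2L with 3L in HP1a-KD was -0.05, below that setting's largest control difference. Leaving the Nxf2-series control out of the control differences raised the number above them from 8 to 22 of 40, and leaving out each other control gave 10 or 11.

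**Figure D4:**
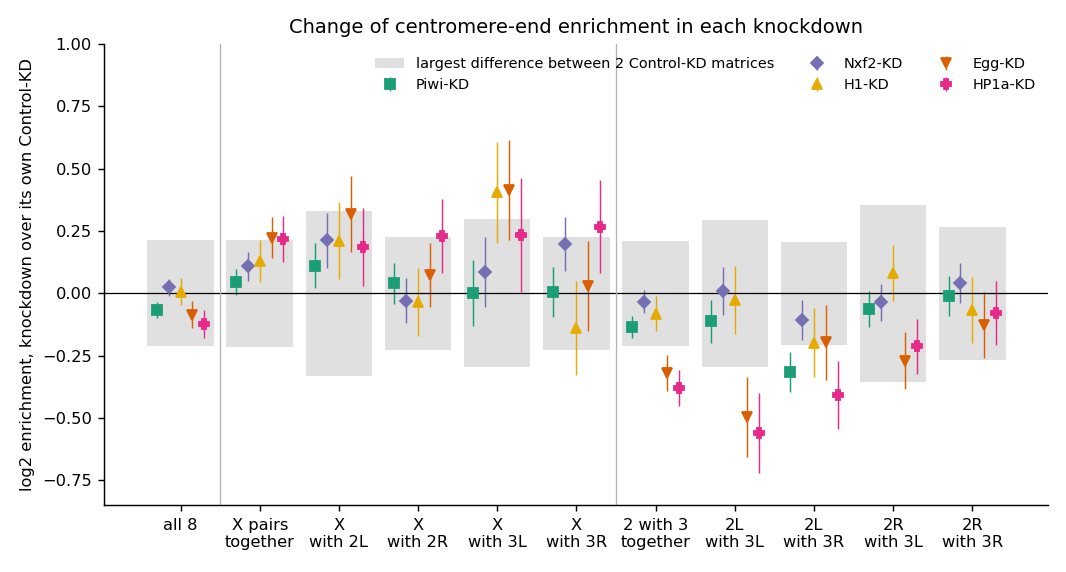
Change of centromere-end enrichment in each knockdown (log2 over its own Control-KD), for all pairs, for the X pairs and the pairs of 2 with 3 together, and for each arm pair. Points are the 5 knockdowns, bars the 95% counting interval, and grey boxes reach the largest difference between 2 Control-KD matrices in either direction. Egg-KD and HP1a-KD lie above zero for the X pairs together (0.22 in both) and below it for 2 with 3 together (-0.32 and -0.38).

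The arm pairs were therefore also summed into those with X and those between 2 and 3, a grouping chosen after the values were seen. For X with 2 and 3, enrichment was 3.52 in Egg-KD against 3.02 and 3.63 in HP1a-KD against 3.12, both a log2 change of 0.22 and only just above the largest control difference of 0.21. For 2 with 3 it was 3.35 in Egg-KD against 4.18 (log2 -0.32) and 3.32 in HP1a-KD against 4.32 (log2 -0.38), with a largest control difference of 0.21. Changes of the other 3 knockdowns were below those differences in both groups. In HP1a-KD the mean member signal of each X arm pair was lower than in its control, so its higher X enrichment reflects a lower reference. The Nxf2-series control set both limits. Without it the largest control difference was 0.05 in each group, and the changes of Nxf2-KD (0.11) and H1-KD (0.13) for the X pairs and of Piwi-KD (-0.14) and H1-KD (-0.08) for 2 with 3 were then above it. The ratio of the groups varied less among controls. The X pairs were at 0.70, 0.72, 0.72 and 0.72 of the 2-with-3 level in the 4 controls, at 1.09 in HP1a-KD, 1.05 in Egg-KD, 0.83 in H1-KD and 0.79 in Piwi-KD and Nxf2-KD. All 5 knockdowns thus lay above all 4 controls. Against its own control the log2 change was 0.60, 0.54, 0.21, 0.18 and 0.14 in that order, with a largest control difference of 0.04, and against the nearest of the 4 controls Piwi-KD was at 0.14. Counting errors of the group changes were 0.026 to 0.047 for the X pairs and 0.022 to 0.038 for 2 with 3. The limit of 0.04 is thus about the size of counting error, and it too was set after the values were seen. Without the highest 1% of pairs the changes were 0.63, 0.57, 0.21, 0.19 and 0.15. On contacts before correction the ratio changed by 0.52 in Egg-KD and 0.57 in HP1a-KD, above a largest control difference of 0.29, and by 0.17, 0.18 and 0.16 in Piwi-KD, Nxf2-KD and H1-KD, which were not. There the 2-with-3 change of HP1a-KD itself was 0.03, no longer a decrease, and that of Egg-KD was -0.15.

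Among single member bins the largest changes were of either sign, and as the extremes of 116 bins they carry no test. In HP1a-KD the largest decrease was 3L 24080001, from 4.77 to 2.47, and the largest increase X 21960001, from 2.22 to 3.28. In Egg-KD 2R 320001 went from 2.75 to 1.46 and X 22360001 from 1.65 to 2.62. In H1-KD 3L 24440001 went from 4.18 to 7.32 and 2L 22360001 from 3.66 to 2.10. In Piwi-KD 2L 22440001 went from 3.36 to 2.18 and X 21880001 from 2.04 to 2.57. In Nxf2-KD 3L 24320001 went from 3.64 to 3.00 and X 22360001 from 1.42 to 1.96. That change of X 22360001 in Nxf2-KD, log2 0.46, was below the bin's largest control difference of 0.55. The other changes named here were above theirs, that of X 21960001 in HP1a-KD only just (0.56 against 0.55). By arm, bins of X were mostly higher in each knockdown, with 19 of 20 up in Egg-KD, 18 in Nxf2-KD and in HP1a-KD, and 15 in Piwi-KD and in H1-KD. In H1-KD bins of 2R (17 of 25), 3L (13 of 22) and 2L (13 of 24) were mostly higher as well. The arms of chromosomes 2 and 3 were mostly lower in HP1a-KD, with 23 of 24 bins down on 2L, 17 of 22 on 3L, 19 of 25 on 3R and 15 of 25 on 2R. They were so in Egg-KD too, with 19 of 24, 19 of 22, 14 of 25 and 19 of 25 in the same order of arms, and in Piwi-KD, with 20 of 24, 14 of 22, 22 of 25 and 17 of 25. Bins of 1 arm share partners and are not independent. Between controls, too, most of these X bins were higher in the Piwi series than in the Nxf2 series. Such counts are therefore not particular to knockdowns, and none are given here for bins outside the windows.

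Past the member window the result depended on the partner. For pairs with both bins 1 to 2 Mb from the centromere ends, enrichment was 1.41 in HP1a-KD against 1.81 (log2 -0.36), 1.64 in Egg-KD and 1.68 in H1-KD against 1.83 (log2 -0.15 and -0.12), and 1.71 in Piwi-KD against 1.78 (log2 -0.05). Nxf2-KD, at 0.02, was within the largest control difference of 0.04 and the other 4 were not. Without the Piwi-series control that difference was 0.015, and Nxf2-KD was then above it. Counting errors were 0.011 in the Nxf2-series control and 0.012 in Nxf2-KD, so this change of 0.02 is not resolved from counting error. In HP1a-KD the change was -0.34 at 2 to 3 Mb, -0.35 at 3 to 5 Mb and -0.22 at 5 to 10 Mb, with largest control differences of 0.05, 0.03 and 0.06. Smaller decreases above these differences were also seen in H1-KD (-0.15, -0.22 and -0.08) and Egg-KD (-0.14, -0.17 and -0.07). Piwi-KD passed only at 3 to 5 Mb (-0.07), and Nxf2-KD in none of these windows. With the first Mb of the other chromosomes as partner, changes were fewer and partly of the other sign. Bins at 1 to 2 Mb were at -0.19 in HP1a-KD, above the largest control difference of 0.07, and at -0.06 in Egg-KD and -0.01 in H1-KD, below it. At 2 to 3 Mb no knockdown was above the largest control difference of 0.19. At 3 to 5 Mb Egg-KD, at 0.12, was just above the largest control difference of 0.11 and the other 4 were below it. At 5 to 10 Mb HP1a-KD was at 0.28 and Egg-KD at 0.24, above the largest control difference of 0.21, and H1-KD at 0.21 just below it. Telomere ends of different chromosomes were lower in H1-KD (log2 -0.28), HP1a-KD (log2 -0.24) and Egg-KD (log2 -0.22), above the largest control difference of 0.16. In Nxf2-KD (log2 -0.05) and Piwi-KD (log2 -0.005) they were within it. Centromere with telomere ends were higher in each knockdown than in its control. Their enrichment was 0.80 in HP1a-KD against 0.49 (log2 0.72) and 0.70 in Egg-KD against 0.50 (log2 0.47), above the largest control difference of 0.41. It was 0.65 in H1-KD (log2 0.38), 0.58 in Nxf2-KD (log2 0.12) and 0.69 in Piwi-KD (log2 0.09), below that difference. All 9 values were under 1. The Piwi-series control was the highest of the controls here, at 0.64, and set the limit. Without it the largest control difference was 0.14, and H1-KD was then above it. Without the HP1a-series control it was 0.36, which H1-KD also passed. Centromere ends of 2L and 2R were at 6.98 in Egg-KD against 9.79 (log2 -0.49) and 7.37 in HP1a-KD against 9.83 (log2 -0.42), with a largest control difference of 0.29. Those of 3L and 3R were at 2.58 in Egg-KD against 3.58 (log2 -0.47) and 2.72 in Nxf2-KD against 3.15 (log2 -0.21), with a largest control difference of 0.20. In HP1a-KD the 3L and 3R ends were at 3.87 against 3.62.

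**Figure D5:**
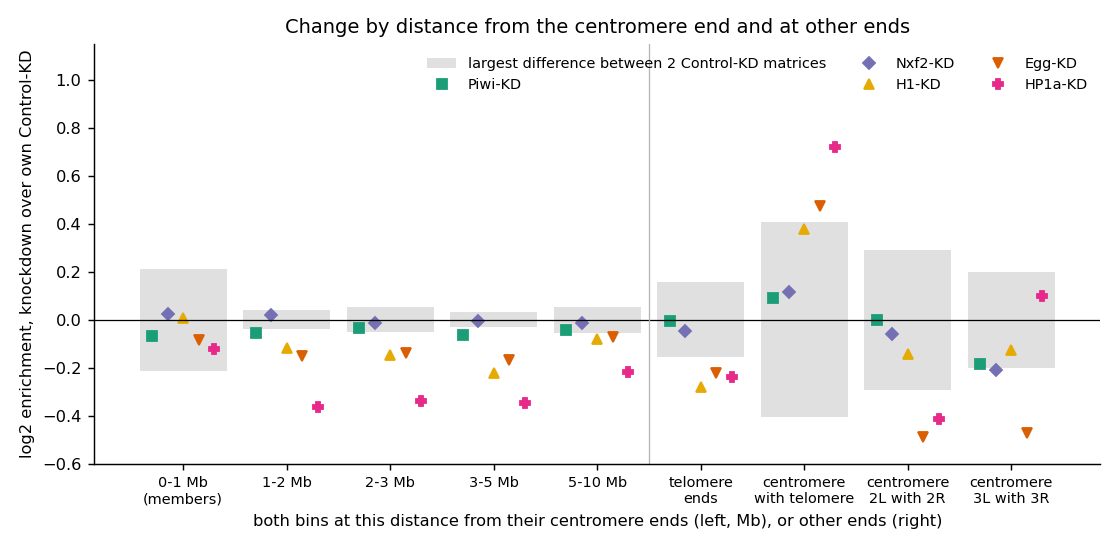
Change in each knockdown (log2 enrichment over its own Control-KD) of pairs with both bins at the same distance from their centromere ends (left, Mb) and of other ends (right). Grey boxes reach the largest difference between 2 Control-KD matrices in either direction. HP1a-KD is lowest in each window from 1 to 10 Mb (-0.36 to -0.22) and highest for centromere with telomere ends (0.72).

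As a share of a bin's own contacts with other chromosomes, centromere-end contacts of HP1a-KD were lower in member bins and higher over all bins, by the median. A bin was called changed when its mean signal with the centromere ends of other chromosomes, divided by its mean with all of their bins, moved by 0.5 or more on the log2 scale. Among all kept bins an increase was called for 43.7% in HP1a-KD, 31.5% in Egg-KD, 31.4% in H1-KD, 4.6% in Nxf2-KD and 3.29% in Piwi-KD. A decrease was called for 3.89%, 4.97%, 4.17%, 2% and 2% in the same order. Of the member bins, 0 of 121, 0 of 121, 1 of 116, 1 of 121 and 0 of 119 were called increased, and 43, 32, 12, 0 and 4 decreased. In HP1a-KD decreases thus made up 35.5% of member bins and in Egg-KD 26.4%, with medians of -0.35 and -0.34 over member bins and 0.42 and 0.27 over all bins. In H1-KD these medians were -0.19 and 0.25. Between pairs of controls the median differed by up to 0.29 over member bins and 0.28 over all bins. HP1a-KD was beyond both, Egg-KD only over member bins, and H1-KD beyond neither. At the call limit of 0.5, the controls differed among themselves in up to 31.2% of all bins and 17.4% of member bins. The part of depth in this was not tested. The pair of shallower controls differed by this limit upward in 14.6% and downward in 7.91% of all bins, and in 0.826% of member bins. A bin outside the windows had a median of 36 to 118 contacts with the centromere ends in a matrix, and a member bin 122 to 396.5. For a change at these medians, counting error was log2 0.19 to 0.34 outside the windows and 0.10 to 0.18 for member bins. The limit of 0.5 is thus nearer to counting error outside the windows, and call rates of member bins and other bins are not directly comparable.

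Single pairs were read last. A pair was called high at 2 or more times the mean of all pairs of its arms. For the Piwi series, in control and knockdown, 59.3% and 56.0% of member pairs were high, beside 11% and 10.7% of all pairs between chromosomes. In the Nxf2 series the shares were 54.8% and 55.0%, beside 11.2% in both. They were 51.6% in the H1/Egg control, 54.1% in H1-KD and 50.7% in Egg-KD, beside 16.6%, 17.2% and 16.7%. In the HP1a series they were 51.8% in the control and 48.5% in the knockdown, beside 16.3% and 18.1%. Member pairs were thus high more often than pairs in general in all 9 matrices. The general share was larger in the shallower matrices, so the shares are best read within a series.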

How the data were processed

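Of the 36 samples of the series, 18 were Hi-C libraries and 18 were not analysed here. Per the study's methods, the authors digested with HindIII, built 40-kb matrices on dm3 with HiCExplorer, summed 2 replicates per condition, removed bins of low or high coverage, applied iterative correction (ICE) and normalized the matrices. The deposited value of a bin pair is this corrected signal, without unit. The labels' processing notes also name cutadapt, Bowtie2 2.2.9 and MACS 1.4.2, without a role. All deposited value columns matched a sample.

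Correction gives every kept bin the same total, so a bin's contacts elsewhere move its signal at the centromere ends. Contacts before correction were recovered as whole numbers (100% of those under 50 within 0.01 of a whole number) and give the depth and counting errors. They also served as an alternative. Enrichments and changes are defined where first used. The named bins are the highest and lowest of each arm over the 4 Control-KD matrices, the highest pair of each arm pair, and the largest change up and down in each knockdown. Bins outside the windows, X 21800001, 2R 200001 and the grouping of X pairs were named after their values were seen. Members and lists were chosen with earlier results of these data known. Differences were set beside those of 6 pairs of Control-KD matrices, since merged replicates allow no test. The 4 controls came from separate series of unequal depth. Alternatives changed the values used, bins, window, absent pairs, reference, large values, weights, arms and control. Calculations used Python 3.11.15, NumPy 2.4.6, SciPy 1.17.1 and matplotlib 3.10.9 and were tested on simulated data. There the measured enrichment of arm pairs lay within log2 0.074 of that expected after correction. From the enrichment planted before correction it differed by up to log2 0.28. These matrices do not measure how far each knockdown went, and no dm3 sequence or gene annotation was used.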

Additional observations from a re-analysis of the deposited data

Results flagged for a closer look

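For 59 results, the 4 Control-KD matrices were compared with each other, and 1 value stood apart from the other 3 in 4 of them. A gap this large relative to the range is seen by chance in about 1 in 20 groups. The 4 of 59 are near that rate, and many of the 59 results share bins. For X with 3L, enrichment was 3.42 in the HP1a-series control and 2.78 to 2.86 in the others. For 2L with 3L it was 5.08 in the Nxf2-series control and 6.09 to 6.23 in the others. The centromere ends of 3L and 3R were at 3.15 in the Nxf2-series control and 3.55 to 3.62 in the others. Bin 2R 2200001, outside the member window, was at 26.8 in the Piwi-series control and 9.75 to 10.6 in the others, and Piwi-KD was at 23.1.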

How the results depend on the processing

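No paired analysis was possible because the replicates were merged into 1 matrix per condition before deposit. Alternatives that leave out a control or the highest 1% of pairs, and those of the X and 2-with-3 groups, of pairs at 1 to 2 Mb and of centromere with telomere ends, were chosen after seeing the data.

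The control mean of the enrichment over all arm pairs, 3.58, was 1.93 on contacts before correction, 3.15 with the 10 nearest bins, 2.44 with the 50 nearest, 3.20 with absent pairs left out, 5.95 with pairs divided by their bins' between-chromosome totals, 2.99 with the most extreme values of each arm pair capped, 3.34 with equal weight of arm pairs, 4.13 without X, 4.01 without 2L with 3R and 3.28 without the highest 1% of pairs. Changes over all arm pairs were 0.054 in Egg-KD and 0.25 in HP1a-KD on contacts before correction, -0.74 (HP1a-KD), -0.58 (Egg-KD) and -0.48 (H1-KD) with pairs divided by totals, -0.32 (Egg-KD) and -0.38 (HP1a-KD) without X, and -0.23 in Egg-KD with the 10 nearest bins.

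On contacts before correction the X pairs changed by 0.37 in Egg-KD and 0.60 in HP1a-KD, and 2 with 3 by -0.15 in Egg-KD, 0.081 in H1-KD and, with reversed sign, 0.029 in HP1a-KD. The ratio of X pairs to 2 with 3 changed by 0.18 in Nxf2-KD and 0.16 in H1-KD there, and by 0.16 in H1-KD over bins kept in all matrices. At 1 to 2 Mb HP1a-KD was at -0.31.

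Another control in place of the own one moved many values. With the Nxf2-series control, changes over all arm pairs were 0.13 (Piwi-KD), 0.090 (HP1a-KD), 0.081 (Egg-KD) and 0.17 (H1-KD), those of X pairs 0.21, 0.43, 0.39 and 0.29, and those of 2 with 3 0.072, -0.17, -0.16 and 0.083 in the same knockdowns, while in Piwi-KD the ratio was 0.14, pairs at 1 to 2 Mb -0.093 and centromere with telomere ends 0.36. With the Piwi-series, H1/Egg and HP1a-series controls, Nxf2-KD was at -0.17, -0.14 and -0.19 over all arm pairs, -0.059, -0.059 and -0.11 for X pairs and -0.24, -0.20 and -0.24 for 2 with 3. With the Piwi-series control the ratio was 0.64 in HP1a-KD, 0.59 in Egg-KD, 0.25 in H1-KD and 0.18 in Nxf2-KD, pairs at 1 to 2 Mb were at -0.11 in Egg-KD, -0.080 in H1-KD and 0.057 in Nxf2-KD, and centromere with telomere ends at 0.32 in HP1a-KD, 0.11 in Egg-KD, 0.018 in H1-KD and -0.15 in Nxf2-KD. In Piwi-KD with the H1/Egg and HP1a-series controls the ratio was 0.14 in both and centromere with telomere ends were at 0.45 and 0.50, and with the H1/Egg control pairs at 1 to 2 Mb were at -0.093. The cause of these shifts was not tested. Leaving each control out of the control differences gave 10 to 22 changes of arm pairs above them, with 22 without the Nxf2-series control.

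For single arm pairs, 202 of 280 alternative values moved by less than the spread between controls and 78 by more. No value separates knockdown from library within a series, since each condition is 1 matrix. The shallower matrices leave up to 36.7% of member pairs without a contact, so single pairs there are not resolved at this depth.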
